A study of Mus musculus with 12 samples.

Results

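Translation initiation factors were taken as the genes whose symbol starts with Eif in the deposited count table, leaving out the sex-linked pair Eif2s3x and Eif2s3y and the kinase gene Eif2ak3. Of the 24062 symbols in the table, 55 start with Eif and 52 remained. Cortex RNA was sequenced from mice of 9 months in 4 genotype groups, assigned here by sample title, with 3 libraries each. WT mice carried neither modification. Tia1+/- mice carried 1 mutant allele of Tia1. PS19 mice carried a human P301S tau transgene driven by the mouse prion protein promoter and 2 normal Tia1 alleles. P301S Tia1+/- mice carried the transgene and the mutant Tia1 allele. Per the methods, the Tia1 mutants had been backcrossed to C57BL/6J, whereas the PS19 line came on a mixed background. These lines were crossed and their offspring bred with each other. The methods describe the resulting P301S Tia1+/+ and P301S Tia1+/- mice as littermate controls whose genetic background was identical. The methods also state that mice with end-stage disease signs were not sequenced. Cortex is a mixture of cell types, so that fewer cells of a type and less RNA per cell cannot be told apart in any value given here.

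Translation initiation starts when eIF2 with GTP and the initiator tRNA forms the ternary complex, which joins the small ribosomal subunit together with eIF1, eIF1A, eIF3 and eIF5. The cap-binding complex eIF4F then brings the mRNA, the complex scans to the start codon, and eIF5B promotes joining of the large subunit. When eIF2 is phosphorylated by 1 of its kinases, its exchange factor eIF2B is blocked and initiation stalls. The stalled complexes, which hold mRNA, small subunits, eIF3 and eIF4 factors, are the known core of stress granules, and TIA1 is an RNA binding protein that nucleates these granules. The study placed TIA1 reduction in this setting, and the question here was whether the transcripts of the initiation factors themselves differed between the genotypes.

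The counts summed to between 11978962 and 19146484 per library, and the initiation factors took between 0.595% and 0.682% of them. Tia1 itself, the mutated gene, was at 93.8, 76.8 and 75.4 CPM (counts scaled to a common library size after TMM normalization) in WT and at 61.4, 62.8 and 79.8 in Tia1+/-. It was at 77.9, 70.8 and 71.9 CPM in PS19 and at 72.6, 73.5 and 77.8 in P301S Tia1+/-. The Tia1 level therefore did not separate the Tia1+/- groups from their controls in every library, and groups are named here as their titles label them. For the 2 groups with the mutant allele, the genotype field of the sample records is swapped relative to the title. By that field, the mice called P301S Tia1+/- here would lack the transgene, and those called Tia1+/- would carry it. The difference with tau between these 2 groups would then change sign. Which label is right was not tested, and each statement on either group depends on it. Xist had between 3304 and 5693 counts in the 6 libraries of the Tia1+/- groups and at most 13 in the other 6, and the Y-linked Ddx3y had at most 2 against at least 1605. Each comparison across Tia1 genotype is thus also one across these sex-linked genes, and the 2 cannot be told apart, although the methods speak of male mice. PS19 against WT and P301S Tia1+/- against Tia1+/- do not cross them. The summed level of 8 olfactory bulb markers was 996, 143 and 33.2 CPM in WT, 7.38, 6.31 and 117 in Tia1+/-, 5.66 to 13.05 in the PS19 mice and 612 to 754 in P301S Tia1+/-. Of these 8, 6 had counts in all libraries. The summed level of 6 striatal markers was 1159 CPM in Tia1+/- replicate 3 and between 72.6 and 193 elsewhere. All 6 markers of cortical excitatory neurons were detected in all libraries, with summed levels of 991 to 2300 CPM.

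Of the 52 genes, 49 passed the filter on low counts. Eif4e1b, Eif3j1 and Eif3j2 had 0 counts in all 12 libraries, which allows up to 0.250 CPM in the library with the fewest counts. The 50-base stretches of the Eif3j2 transcript occur to 91.8% in other genes, and those of Eif3j1 to 39.8%, so that the handling of shared reads bears on these listings. The measured genes varied little. The median coefficient of variation over the 12 libraries was 8.86% for the initiation factors, against 12.8% for the 10217 tested genes with a mean of at least 10 CPM. The sets were not matched on level, and initiation factors below 10 CPM were kept, so the difference may reflect level.

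To compare levels between genes, CPM were divided by the exon length of the GENCODE M21 gene in kilobases. The RNA helicases that unwind the 5′ end of mRNA led the list. Eif4a2 was at 296 ± 21.8 CPM per kilobase (SD, n = 12) and its paralog Eif4a1 at 197 ± 23.3. The helicase cofactor Eif4h followed with 136 ± 7.31. The lowest Eif4a2 value and the highest Eif4a1 value were both 258 CPM per kilobase, whereas Eif4h, with at most 147, stayed below each library of both helicases. The 12 detected subunits of eIF3, the scaffold on the small subunit, lay between 22.2 (Eif3b) and 92.9 (Eif3h) CPM per kilobase. Among the lowest were Eif4ebp2 with 1.02, Eif4ebp1 with 2.09 and Eif4ebp3 with 4.63, all genes of the small proteins that block eIF4E, together with the kinase gene Eif2ak2 at 2.54 CPM per kilobase. Of the 50-base stretches of Eif4ebp3, 65.5% occur in AC115631.1, which overlaps it on the same strand, and Eif4ebp2 overlaps Gm48086 on the same strand. The handling of shared reads is not known, so the levels of Eif4ebp2 and Eif4ebp3 are uncertain.

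**Figure D1:**
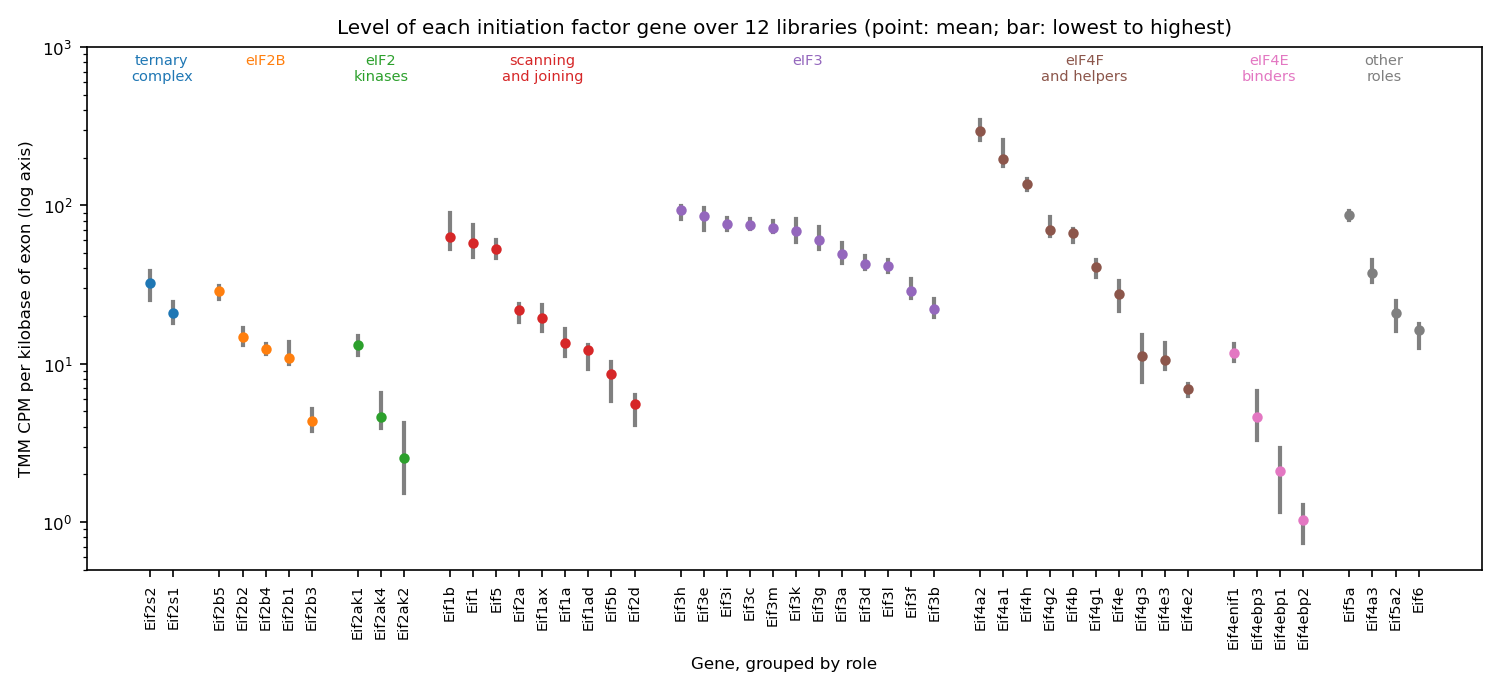
Level of each of the 49 tested initiation factor genes in CPM per kilobase of exon on a log axis, grouped by role along the horizontal axis. Points are means over 12 libraries and bars run from the lowest to the highest library; Eif4a2 has the highest mean (296) and Eif4ebp2 the lowest (1.02).

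The promoters of these genes were searched for CACGTG, the E-box that MYC proteins bind, because MYC is among the regulators named in the study. The motif reads the same on both strands. RefSeq promoter windows of 300 bases on GRCm38.p6, with 250 bases before the start, were at hand for 40 of the 52 genes. The motif stood in a window of 10 of these 40 genes (25%), against 8.09% of 27025 genes in all. By window it was 22.6% of 53, against 7.15% of 32851. The 27025 genes were not limited to those counted or expressed here, and a link of these genes to MYC was not tested. The 5 genes shown are those that hold it and had an unadjusted p under 0.05 in a comparison with WT described below. Each line gives the coding strand from 5′ to 3′, with the motif in capitals.
Eif1b, chr9:120492570-120492599, plus strand: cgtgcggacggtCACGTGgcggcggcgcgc
Eif4a1, chr11:69672595-69672624, minus strand: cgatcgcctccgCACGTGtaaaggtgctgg
Eif4e, chr3:138527028-138527057, plus strand: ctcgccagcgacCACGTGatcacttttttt
Eif4e, chr3:138527192-138527221, plus strand: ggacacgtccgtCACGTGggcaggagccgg
Eif3a, chr19:60790654-60790683, minus strand: ccgcgagggaatCACGTGgttccttccttt
Eif3k, chr7:28981915-28981944, minus strand: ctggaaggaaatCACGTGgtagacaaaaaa
The motif began 24, 189 and 44 bases before the start in Eif1b, Eif4a1 and Eif3k, 228 and 64 bases before it in Eif4e, and 22 bases after it in Eif3a. A match describes letters in the window and not binding of a factor.

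No initiation factor gene passed an adjusted p of 0.05 in any comparison with edgeR's quasi-likelihood test over 15440 genes and Benjamini-Hochberg adjustment. For PS19 against WT, 0 of 49 passed, against 0% of all genes tested. At an unadjusted p under 0.05 stood 4 of the 49, all lower in PS19, against 16.3% of all genes. The groups did not overlap in 13 of the 49 (26.5%), against 20.8% of all genes. The median log2 fold change of the 49 was −0.05, with 34 lower, beside −0.01 over all genes tested. It was −0.019 without PS19 replicate 3. DESeq2's Wald test called 1 of the 49, Eif1b, and 431 genes in all.

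In P301S Tia1+/- against PS19, the comparison that the study used to ask what TIA1 reduction does in the tau mice, 0 of 49 passed in edgeR, against 0.24% of all genes. An unadjusted p under 0.05 was reached by 4 genes, all lower, against 19.3% of all genes, and the groups did not overlap in 10 (20.4%), against 38.5%. The median log2 fold change was −0.02, with 26 lower. Leaving out PS19 replicate 3 gave a median of −0.046, and leaving out P301S Tia1+/- replicate 3 gave 0.020 with 23 lower. The count was 31 when PS19 replicate 2 was left out. DESeq2 called Eif5b of the 49, and 821 genes in all. A fit of the 6 libraries of these groups alone called 3 genes in edgeR, Eif5b, Eif2s2 and Eif4g3, in a fit that called 3025 genes in all.

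In Tia1+/- against WT, 0 of 49 passed in edgeR, against 0.712% of all genes. Unadjusted p values under 0.05 were found for 8 genes (16.3%), 7 of them lower, against 19.1% of all genes, and the groups did not overlap in 11 (22.4%), against 20%. The median was −0.06 on the log2 scale with 37 of 49 lower, beside 0.01 over all genes. It was −0.089 without Tia1+/- replicate 1 and −0.032 without Tia1+/- replicate 3, with 31 lower without WT replicate 3. DESeq2 called 3, namely Eif1b, Eif4a3 and Eif3a, and 972 genes in all. Leaving out WT replicate 3, edgeR called Eif4a3 alone of the 49, and 497 genes in all.

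In P301S Tia1+/- against Tia1+/-, 0 of 49 passed in edgeR, against 0% of all genes. All 5 genes at an unadjusted p under 0.05 (10.2%) were lower, against 15.6% of all genes, and the groups did not overlap in 7 (14.3%), against 26%. The median log2 fold change was 0.01 with 22 lower. DESeq2 called Eif5b of the 49, and 403 genes in all. Without Tia1+/- replicate 3, the library with high striatal markers, 33 of the 49 were lower and the median was −0.03.

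In P301S Tia1+/- against WT, 0 of 49 passed in edgeR, against 1.31% of all genes. Unadjusted p values under 0.05 were found for 9 genes (18.4%), 8 of them lower, against 18% of all genes. The groups did not overlap in 14 (28.6%), against 23.2%. The median was −0.11 with 36 lower, beside 0.02 over all genes, and −0.069 without P301S Tia1+/- replicate 3. DESeq2 called 5, which were Eif5b, Eif3a, Eif2s2, Eif4e and Eif1b. Without WT replicate 1, which had the highest bulb marker level of all libraries, edgeR called 4, namely Eif5b, Eif4enif1, Eif3a and Eif1b. Over all genes DESeq2 called 974, and the edgeR fit without this library called 1637.

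The interaction asks whether the difference with P301S tau, as the titles assign it, was the same in both Tia1 genotypes. In edgeR 0 of 49 passed, against 0.00648% of all genes, and 5 had an unadjusted p under 0.05 (10.2%), against 22.9%. DESeq2 called Eif4a3 of the 49, and 1216 genes in all. Without WT replicate 3, edgeR also called Eif4a3, and 1035 genes in all. In the heat map of all 49 genes, Eif2ak2 has its highest values in WT replicate 1 and PS19 replicate 1.

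**Figure D2:**
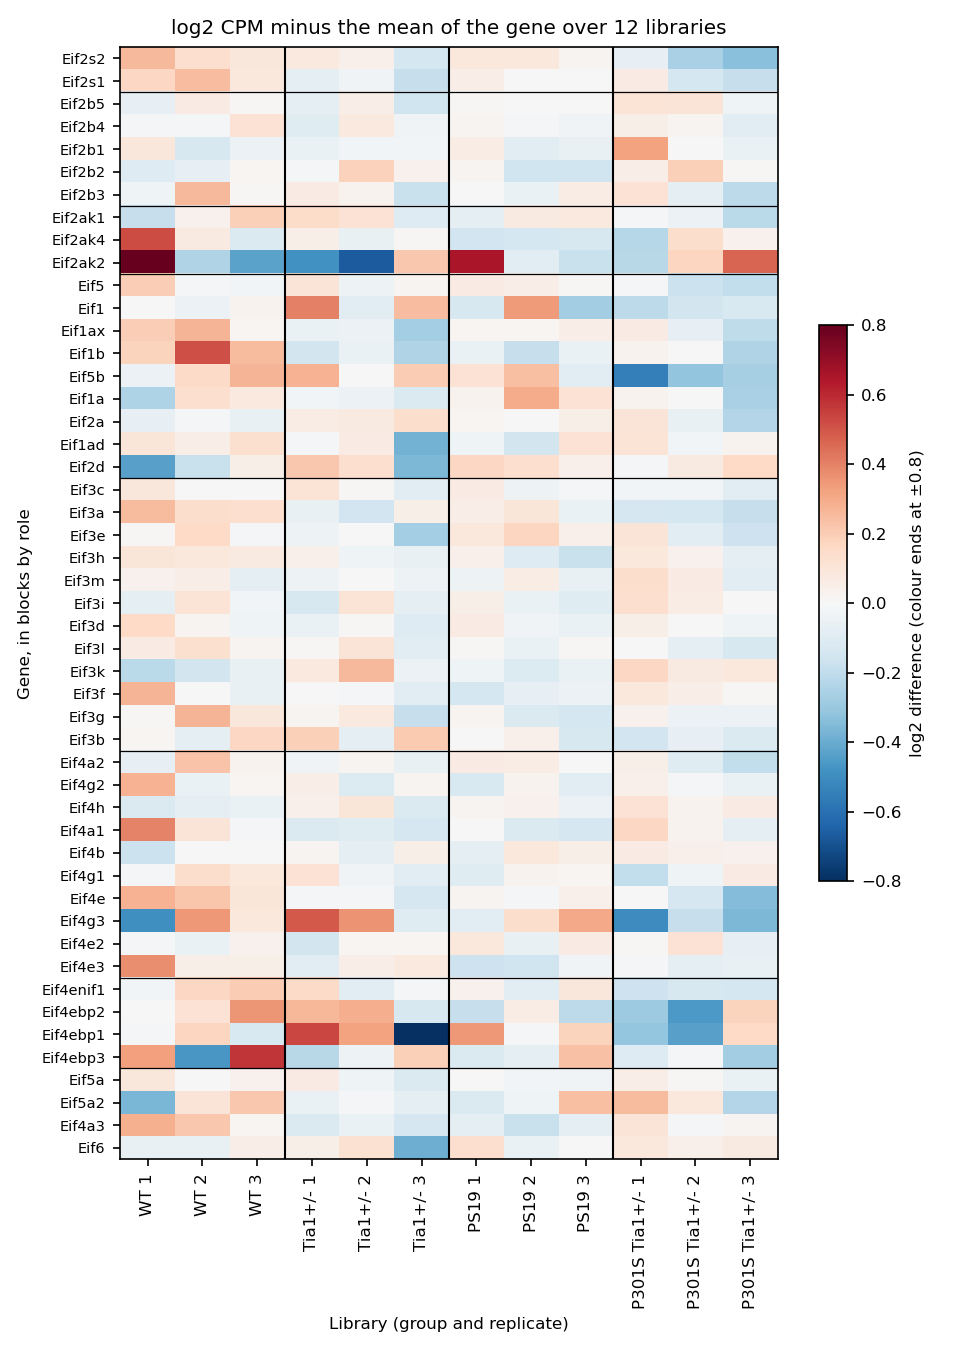
Colour map of log2 CPM of the 49 tested genes (rows, in blocks by role) in the 12 libraries (columns, by group), each as the difference from the mean of the gene over all libraries. Red is above and blue below the mean; most cells are pale, Eif2ak2 ranges from 6.57 to 18.1 CPM, and the 3 P301S Tia1+/- libraries are blue for Eif5b.

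Both ternary complex genes, Eif2s1 and Eif2s2, were highest in WT, and Eif2s2 had its lowest mean in P301S Tia1+/-. Eif2s2, which encodes eIF2 beta, had 120, 110 and 107 CPM in WT and 105, 103 and 90.8 in Tia1+/-. It had 106, 106 and 101 CPM in PS19 and 95.3, 83.6 and 79.2 in P301S Tia1+/-. Every WT library was above all 9 others, narrowly so, with 106.6 CPM in WT replicate 3 and 106.2 in PS19 replicate 2. All 3 P301S Tia1+/- libraries were below all WT and all PS19 libraries, while 1 of them was above Tia1+/- replicate 3. In edgeR the log2 fold change was −0.38 ± 0.09 (SE) against WT with an adjusted p of 0.0624, −0.28 ± 0.09 against PS19 with an adjusted p of 0.152, and −0.21 ± 0.09 against Tia1+/- with an adjusted p of 0.295. Of the 50-base stretches of its transcript, 27.8% occur in other genes. Eif2s1, which encodes eIF2 alpha, the subunit that the stress kinases phosphorylate, had 79.0, 83.4 and 74.6 CPM in WT and 62.1 to 69.0 in Tia1+/-. It lay between 70.3 and 73.1 CPM in PS19 and between 61.9 and 73.7 in P301S Tia1+/-. Every WT library was above every other library, and in edgeR the log2 fold change was −0.26 ± 0.08 for Tia1+/- (adjusted p of 0.138) and −0.25 ± 0.08 for P301S Tia1+/- (adjusted p of 0.153).

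Eif2d, which encodes a factor that can bring the initiator tRNA to the ribosome without eIF2, had 16.9, 20.1 and 23.6 CPM in WT, 26.4, 25.0 and 17.8 in Tia1+/-, 25.6, 25.1 and 23.4 in the PS19 mice, and 22.6, 24.0 and 25.5 in P301S Tia1+/-. The P301S Tia1+/- libraries overlapped each other group. The edgeR log2 fold change of Eif2d was −0.04 ± 0.15 against PS19 (adjusted p of 0.908), 0.06 ± 0.15 against Tia1+/- (adjusted p of 0.882) and 0.25 ± 0.16 against WT (adjusted p of 0.435). With the bulb marker level as a covariate these were 0.73, 0.72 and 0.48, with edgeR adjusted p values of 0.0456, 0.0301 and 0.0219. That level was 5.66 to 13.05 CPM in the PS19 mice and 612 to 754 in P301S Tia1+/-. Within groups it varied widely only in WT and through Tia1+/- replicate 3, the library with high striatal markers. The fit thus rests on few libraries, and bulb level and group cannot be fully separated, here and in the covariate values below.

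The 5 subunits of eIF2B, which reloads eIF2 with GTP, had no unadjusted p under 0.05 in any comparison. Their levels per kilobase were unequal, at 28.6 CPM for the catalytic subunit gene Eif2b5, 14.8 for Eif2b2, 12.4 for Eif2b4, 10.9 for Eif2b1 and 4.36 for Eif2b3. Eif2b5 had 74.5 ± 3.42 CPM (SD, n = 3) in WT, 71.2 ± 5.26 in Tia1+/-, 74.2 ± 0.349 in the PS19 mice and 77.3 ± 4.24 in P301S Tia1+/-, and the groups overlapped. Of the eIF2 kinase genes, Eif2ak1, which encodes the heme-regulated kinase, was the most abundant with a mean of 56.9 CPM and group means of 53.4 to 59.1. Eif2ak4, which encodes the amino acid sensor GCN2, had 47.7 CPM in WT replicate 1 and 28.4 to 36.7 elsewhere. Eif2ak2, which encodes the kinase PKR that binds double-stranded RNA, was the most variable of the 49, with a coefficient of variation of 33.7%. Its highest values were 18.1 CPM in WT replicate 1 and 16.4 in PS19 replicate 1, and its lowest was 6.57 in Tia1+/- replicate 2. None of the 3 kinase genes had an unadjusted p under 0.05 in any comparison.

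Among the scanning factors Eif1b stood lower in each of the 3 other groups than in WT. Eif1b encodes a close relative of eIF1, the factor that holds the small subunit open while it looks for the start codon. It had 79.6, 101 and 83.9 CPM in WT, 63.7, 67.9 and 59.6 in Tia1+/-, 67.9, 62.0 and 68.0 in the PS19 mice, and 72.0, 70.6 and 59.7 in P301S Tia1+/-. All 3 WT libraries were above all 9 others, among which the groups overlapped. In edgeR the log2 fold change against WT was −0.47 ± 0.11 for Tia1+/- (adjusted p of 0.0696), −0.42 ± 0.11 for PS19 (adjusted p of 0.160) and −0.39 ± 0.11 for P301S Tia1+/- (adjusted p of 0.0931). These values rest on the same 3 WT libraries, and without WT replicate 2, the highest, they were −0.36, −0.31 and −0.28. The interaction was 0.50 ± 0.15 (edgeR adjusted p of 0.103). With the bulb marker level as a covariate, Eif1b was called lower in Tia1+/- (−0.60, edgeR adjusted p of 0.0202) and in the PS19 mice (−0.59, edgeR adjusted p of 0.0482), while it was at −0.31 in P301S Tia1+/- (edgeR adjusted p of 0.0949) and the interaction was 0.88 (edgeR adjusted p of 0.101). The gene lies on chr9:120492232-120495330 and overlaps D830035M03Rik on the opposite strand. Since the strand setting of the counting is not known, reads of such overlapping genes cannot be told apart. Its paralog Eif1, by contrast, was highest in 3 libraries of 2 groups, at 142 and 127 CPM in Tia1+/- replicates 1 and 3 and 136 in PS19 replicate 2, and lay between 88.5 and 110 in the others. The log2 fold change of Eif1 between P301S Tia1+/- and Tia1+/- was −0.36 ± 0.16 (edgeR adjusted p of 0.299). Eif1ax, the X-linked gene of eIF1A, had 115, 121 and 101 CPM in WT, 82.9 to 97.2 in Tia1+/-, 101 to 104 in the PS19 mice and 87.0 to 105 in P301S Tia1+/-. Tia1+/- minus WT gave a log2 fold change of −0.29 ± 0.10 (edgeR adjusted p of 0.150) for this gene, in a comparison that crosses the sex-linked genes.

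Eif5b, which encodes the GTPase for subunit joining, was lower in all 3 P301S Tia1+/- libraries than in the other 9, as was Eif4enif1. Neither this pattern nor that of WT above all 9 others was counted over all genes. Taken singly, P301S Tia1+/- did not overlap PS19, Tia1+/- and WT in 38.5%, 26% and 23.2% of all genes. Eif5b had 63.7, 73.0 and 79.4 CPM in WT, 79.8, 65.8 and 75.8 in Tia1+/-, 71.3, 77.6 and 61.7 in the PS19 mice, and 45.0, 52.8 and 54.6 in P301S Tia1+/-. The other 3 groups overlapped. In edgeR the log2 fold change was −0.54 ± 0.12 against Tia1+/- (adjusted p of 0.178), −0.47 ± 0.12 against PS19 (adjusted p of 0.109) and −0.50 ± 0.12 against WT (adjusted p of 0.0642). These comparisons share the 3 P301S Tia1+/- libraries. The interaction was −0.50 ± 0.17 (edgeR adjusted p of 0.130). These 3 libraries all had bulb marker levels of at least 612 CPM, and WT replicate 1, with 996 CPM, had 63.7 CPM of Eif5b. With the bulb marker level as a covariate the values were −0.42, −0.33, −0.46 and −0.29. The gene lies on chr1:37998010-38055579 and overlaps Rev1 on the opposite strand. Eif5, which encodes the factor that triggers GTP hydrolysis on eIF2, had 227 ± 15.3 CPM (SD, n = 3) in P301S Tia1+/- and 253 to 258 as means of the other groups, with no unadjusted p under 0.05.

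**Figure D3:**
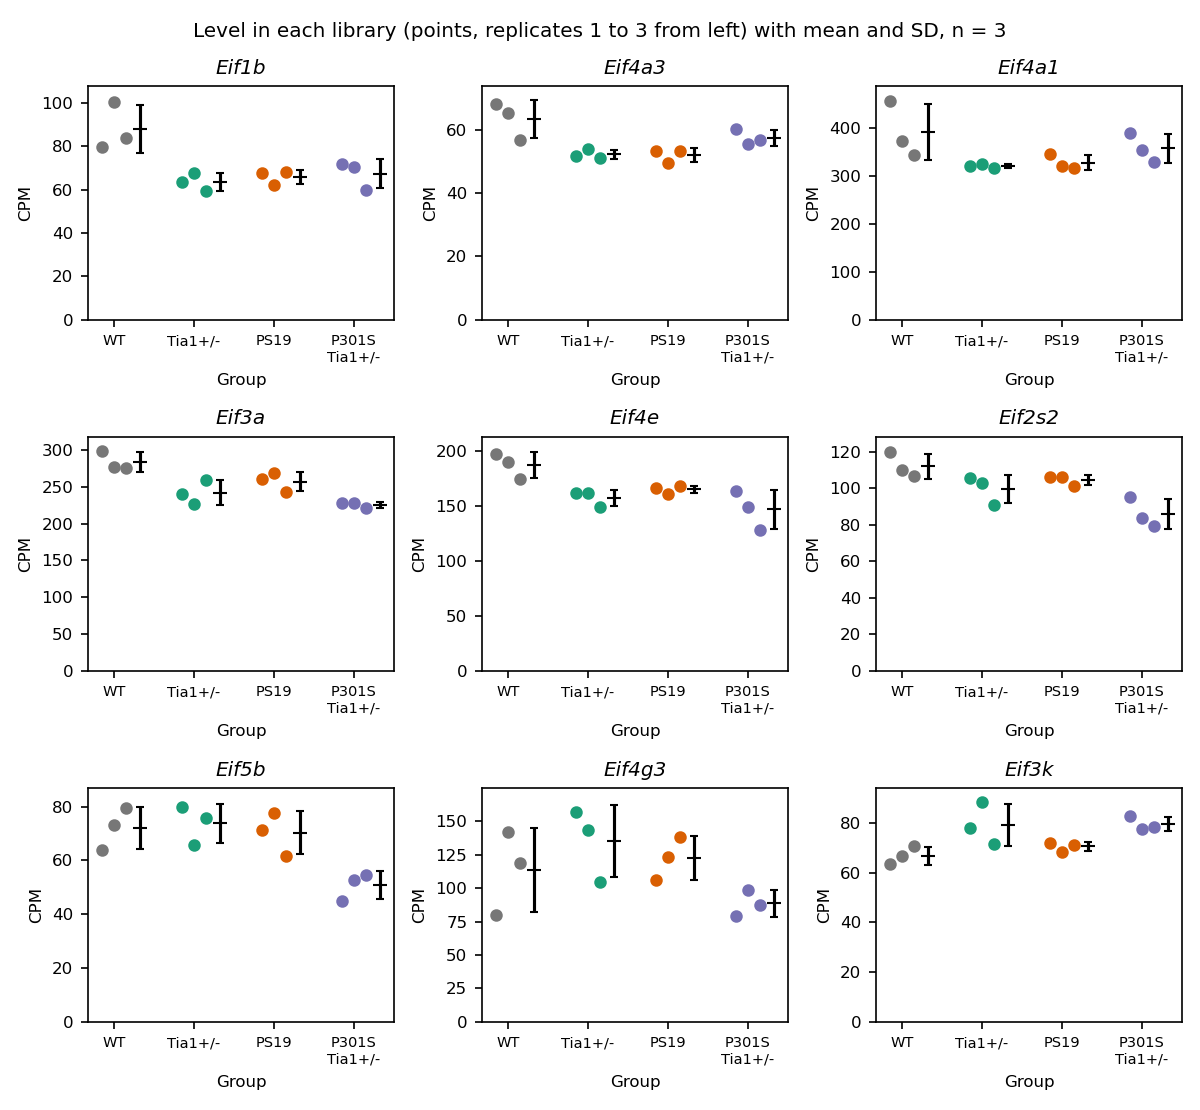
CPM of 9 initiation factor genes in each library (points, replicates 1 to 3 from left) with the mean and SD of each group (n = 3), on axes that start at 0. All Eif1b points of WT lie above those of the other groups, all Eif5b points of P301S Tia1+/- lie below, and Eif4g3 spreads widely within WT (80.0 to 142).

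Of the scaffold eIF3, Eif3a was highest and Eif3k lowest in WT. Eif3a, its largest subunit, had 299, 277 and 275 CPM in WT, 241, 226 and 259 in Tia1+/-, 260, 268 and 242 in the PS19 mice, and 228, 228 and 221 in P301S Tia1+/-. All WT libraries were above all others, and the P301S Tia1+/- libraries were below all PS19 libraries but overlapped Tia1+/-. In edgeR the log2 fold change against WT was −0.33 ± 0.08 for P301S Tia1+/- (adjusted p of 0.0581, the smallest of any member), −0.23 ± 0.08 for Tia1+/- (adjusted p of 0.142) and −0.14 ± 0.08 for PS19 (adjusted p of 0.373), and it was −0.19 ± 0.08 between P301S Tia1+/- and PS19 (adjusted p of 0.223). With the bulb marker level as a covariate the PS19 value turned to 0.02, the Tia1+/- value was −0.10 and the value against PS19 was −0.42.

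Eif3k, a peripheral subunit, had 63.4, 66.5 and 70.6 CPM in WT, 77.8, 88.3 and 71.4 in Tia1+/-, 72.0, 68.4 and 71.1 in the PS19 mice, and 82.8, 77.4 and 78.2 in P301S Tia1+/-. WT stayed below both Tia1+/- groups in every library, with log2 fold changes of 0.24 ± 0.09 for Tia1+/- (edgeR adjusted p of 0.160) and 0.25 ± 0.09 for P301S Tia1+/- (edgeR adjusted p of 0.157). It was the 1 member that stood higher at an unadjusted p under 0.05 in these comparisons. With the bulb marker level as a covariate the Tia1+/- value was 0.08. Eif3b, which holds the core of the complex together, had 59.6 to 63.3 CPM in P301S Tia1+/- and 62.9 to 76.5 in Tia1+/-, a log2 fold change of −0.22 ± 0.10 (edgeR adjusted p of 0.295). The other 9 detected subunits had no unadjusted p under 0.05 in any comparison. Among them Eif3m, Eif3h and Eif3e share 37.3%, 26.2% and 22% of their 50-base stretches with other genes.

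In the cap-binding complex Eif4e and Eif4g3 had their lowest means in P301S Tia1+/-. Eif4e, the gene of the protein that binds the cap, had 198, 190 and 175 CPM in WT, 162, 162 and 149 in Tia1+/-, 166, 161 and 168 in the PS19 mice, and 164, 149 and 128 in P301S Tia1+/-. Every WT library was above all 9 others, which overlapped. In edgeR its log2 fold change against WT was −0.35 ± 0.09 for P301S Tia1+/- (adjusted p of 0.0803), −0.25 ± 0.09 for Tia1+/- (adjusted p of 0.176) and −0.18 ± 0.09 for PS19 (adjusted p of 0.347). Its relatives differed from it in level, with Eif4e2, a cap-binding repressor, at 51.7 CPM in the mean and Eif4e3 at 26.4. Eif4e3 had 33.9 CPM in WT replicate 1, 27.1 in both other WT libraries and 23.4 to 25.8 in the PS19 mice. Its log2 fold change of −0.28 ± 0.10 in the PS19 mice (edgeR adjusted p of 0.236) was −0.15 without WT replicate 1 and −0.03 with the bulb marker level as a covariate.

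Eif4g3, the gene of a scaffold that links eIF4E to the helicase, had 80.0, 142 and 119 CPM in WT, 157, 144 and 105 in Tia1+/-, 106, 124 and 138 in the PS19 mice, and 79.2, 98.9 and 87.4 in P301S Tia1+/-. The P301S Tia1+/- libraries lay below all Tia1+/- and PS19 libraries but not below WT replicate 1. In edgeR the log2 fold change was −0.61 ± 0.21 against Tia1+/- (adjusted p of 0.238) and −0.47 ± 0.21 against PS19 (adjusted p of 0.249), and the interaction was −0.72 ± 0.29 (adjusted p of 0.181). The 4 libraries with the lowest levels were the 4 with the highest bulb marker levels, and with that level as a covariate these values turned to 0.16, 0.44 and 0.68. The other scaffolds showed no such pattern. Eif4g1 had group means of 245 to 267 CPM, and Eif4g2, whose product lacks the eIF4E site and serves cap-independent initiation, had group means of 587 to 648.

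The helicase paralogs differed in their balance between libraries. Eif4a1 had 457, 374 and 344 CPM in WT, 320, 325 and 316 in Tia1+/-, 347, 321 and 316 in the PS19 mice, and 390, 354 and 329 in P301S Tia1+/-. WT was above all Tia1+/- libraries and overlapped the other groups. In edgeR its log2 fold change against WT was −0.29 ± 0.11 for Tia1+/- (adjusted p of 0.180) and −0.26 ± 0.11 for PS19 (adjusted p of 0.277), and without WT replicate 1 these were −0.15 and −0.12. Its interaction of 0.41 ± 0.15 (edgeR adjusted p of 0.147) was 0.27 without WT replicate 1 and −0.06 with the bulb marker level as a covariate. Per kilobase, the ratio of Eif4a2 to Eif4a1 was 1.09 in WT replicate 1 and 1.65 and 1.56 in the other WT libraries. It was 1.59 to 1.64 in Tia1+/-, 1.58 to 1.70 in the PS19 mice and 1.38 to 1.39 in P301S Tia1+/-. The 4 libraries with the lowest ratios were again those with the highest bulb marker levels. Of the 50-base stretches of Eif4a1, 65.3% occur in other genes, mostly in the pseudogene Eif4a-ps4, so its level is uncertain. The helicase cofactor genes Eif4b and Eif4h had group means of 262 to 282 and 350 to 388 CPM, with no unadjusted p under 0.05.

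Among the eIF4E binders, which keep eIF4E from its scaffold, the Eif4ebp genes had low counts, with the limit for overlapping genes given above. Eif4ebp1 had between 2.32 and 5.87 CPM and Eif4ebp2 between 4.26 and 7.45 CPM over the 12 libraries, and the groups overlapped. Eif4enif1, which encodes the eIF4E transporter 4E-T, was higher, at 49.2, 56.1 and 57.4 CPM in WT, 55.5, 46.9 and 49.4 in Tia1+/-, 51.1, 46.8 and 53.2 in the PS19 mice, and 44.5, 45.6 and 45.2 in P301S Tia1+/-. All 3 P301S Tia1+/- libraries were below the other 9, which overlapped. The log2 fold change in edgeR was −0.27 ± 0.09 against WT (adjusted p of 0.153), −0.16 ± 0.09 against PS19 (adjusted p of 0.347) and −0.17 ± 0.09 against Tia1+/- (adjusted p of 0.392). Without WT replicate 1 the value against WT was −0.32 with an edgeR adjusted p of 0.0463.

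Among factors that carry the name but act elsewhere, Eif4a3, the helicase of the exon junction complex that marks spliced mRNA, was highest in WT. It had 68.2, 65.1 and 56.7 CPM in WT, 51.6, 53.9 and 51.1 in Tia1+/-, 53.2, 49.4 and 53.3 in the PS19 mice, and 60.2, 55.4 and 56.9 in P301S Tia1+/-. WT was above all Tia1+/- and PS19 libraries, and P301S Tia1+/- was also above both of these groups while it overlapped WT. In edgeR the log2 fold change against WT was −0.28 ± 0.08 for Tia1+/- (adjusted p of 0.109) and −0.29 ± 0.08 for PS19 (adjusted p of 0.176). The interaction of 0.42 ± 0.12 had the smallest adjusted p of any member in that test, 0.0855. Without WT replicate 3 it was 0.46 with an edgeR adjusted p of 0.0375, and with the bulb marker level as a covariate it was 0.20. Of its 50-base stretches, 24.4% occur in other genes. Eif5a, whose product helps elongation and termination, had the lowest variation of the 49, with 207 ± 8.13 CPM (SD, n = 12) and a coefficient of variation of 3.93%. Eif6, which keeps the large subunit from joining early, had group means of 38.7 to 42.1 CPM.

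The difference with P301S tau, as the titles assign it, can be set side by side in both Tia1 genotypes. PS19 with WT and P301S Tia1+/- with Tia1+/- share no library. Of the 49 genes, 25 had the same sign in both (51.0%), 16 of them lower, and Pearson's r across the genes was −0.08. Over all 15440 genes 36.5% had the same sign and r was −0.64. The bulb marker level runs in opposite directions in the 2 comparisons, from up to 996 CPM in WT to at most 13.05 in the PS19 mice, and from at most 117 in Tia1+/- to at least 612 in P301S Tia1+/-. For the difference with Tia1+/-, 22 of 49 had the same sign with and without P301S tau (44.9%), with r of −0.17, against 43.7% and −0.35 over all genes. Genes are not independent replicates, so these values describe the 12 libraries and carry no test.

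**Figure D4:**
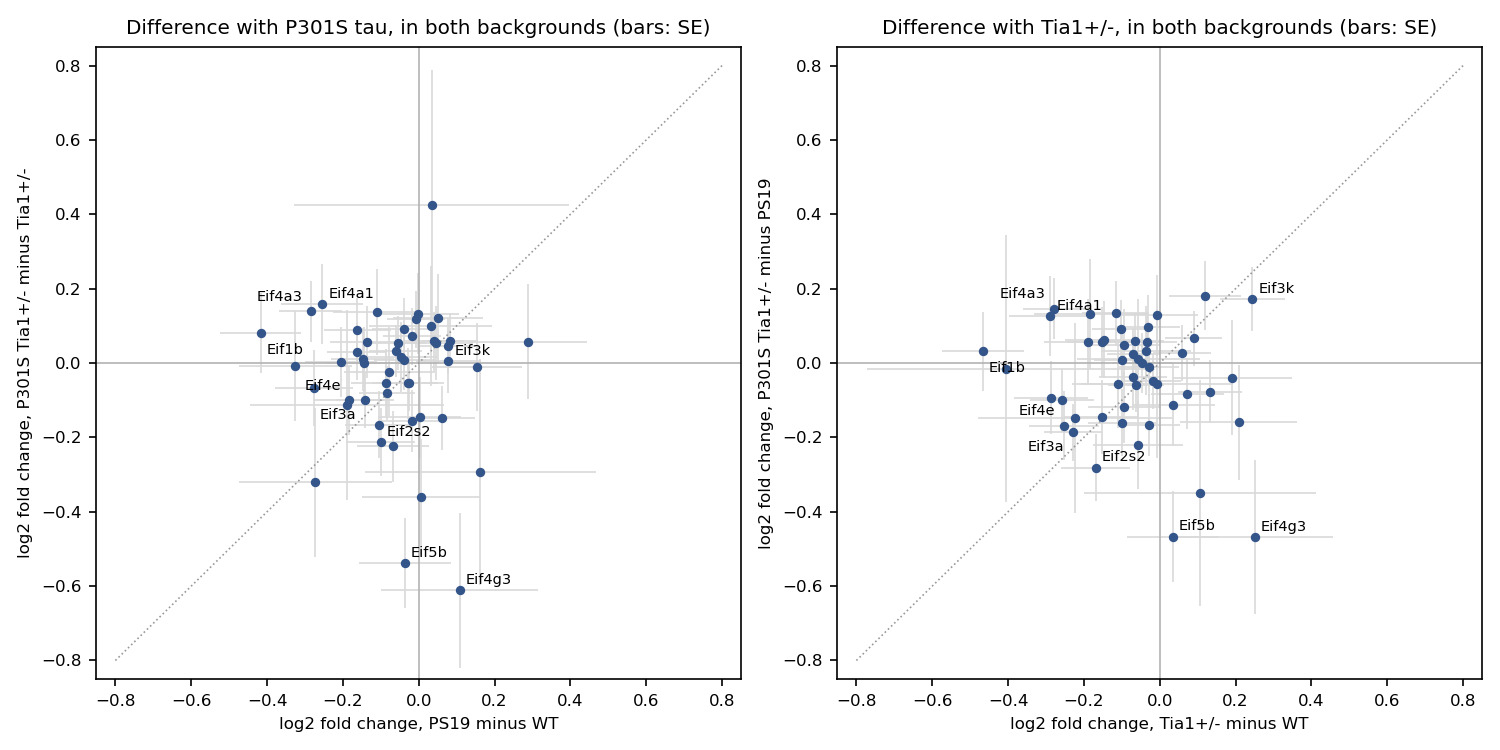
Log2 fold changes with standard errors of the 49 genes. Left, PS19 minus WT on the horizontal axis and P301S Tia1+/- minus Tia1+/- on the vertical axis; right, Tia1+/- minus WT and P301S Tia1+/- minus PS19. Eif1b, Eif4a1 and Eif4a3 lie to the left and Eif5b and Eif4g3 at the bottom of both panels, away from the dotted line of equal values.

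The pathway around initiation, given by 41 further genes, had 0 genes past an adjusted p of 0.05 in edgeR in any comparison. DESeq2's Wald test called 2 of them in PS19 against WT, 3 in P301S Tia1+/- against PS19, 5 in Tia1+/- against WT, 6 in P301S Tia1+/- against WT and 5 in the interaction. Over all genes it called 431, 821, 972, 974 and 1216 in the same order. A fit of only the libraries compared called 8 in edgeR in P301S Tia1+/- against PS19, and 3025 genes in all. Among the 8 were Impact, Mtor and Atf5, which DESeq2 also called there. Atf5 was at 27.9 CPM in WT replicate 1 and 15.1 to 23.8 in P301S Tia1+/-, and at 6.56 to 11.9 elsewhere. Its highest levels were thus in the libraries with the highest bulb marker levels. In edgeR on all libraries, its log2 fold change in P301S Tia1+/- against PS19 was 1.399, and 0.13 with the bulb marker level as a covariate. Without WT replicate 1, edgeR called 5 in P301S Tia1+/- against WT, and 1637 genes in all.

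Of 12 genes for eIF2 dephosphorylation and the response to phosphorylated eIF2, 1 was higher and 3 lower at an unadjusted p under 0.05 in PS19 against WT, where 16.3% of all genes passed this threshold. The lower ones were the transcription factor genes Ddit3 (−0.59 ± 0.16, edgeR adjusted p of 0.170) and Atf4 (−0.39 ± 0.18, 0.297) and the phosphatase subunit gene Ppp1r15b (−0.32 ± 0.08, 0.159). DESeq2 called Ddit3 and Ppp1r15b in this comparison. Ddit3 had 45.8, 33.4 and 27.9 CPM in WT and 26.8, 20.7 and 23.7 in the PS19 mice, without overlap, and its fold change was −0.36 without WT replicate 1. The values were −0.16 for Ddit3, −0.17 for Ppp1r15b and −0.74 for Atf4 with the bulb marker level as a covariate. The fall was not particular to PS19. Against WT, Ddit3 was at −0.63 ± 0.16 in Tia1+/- (edgeR adjusted p of 0.0843) and −0.46 ± 0.16 in P301S Tia1+/- (0.159), without overlap. Ppp1r15b was at −0.24 ± 0.08 (0.140) and −0.19 ± 0.08 (0.243), also without overlap. Atf4 was at −0.29, with overlap, and at −0.36, without. The higher one in PS19 against WT was Impact, an inhibitor of the kinase GCN2, with 464, 597 and 504 CPM in WT and 680, 673 and 622 in the PS19 mice. Between P301S Tia1+/- and PS19, the log2 fold change of Impact was −0.38 ± 0.10 (edgeR adjusted p of 0.109).

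Of 20 genes for control of cap binding and recycling, 6 had an unadjusted p under 0.05 in P301S Tia1+/- against WT, 2 of them higher, against 18% of all genes. They included Rps6kb1, the S6 kinase gene, with −0.34 ± 0.08 (edgeR adjusted p of 0.0612), and Mknk1, the gene of a kinase that phosphorylates eIF4E, with 0.49 ± 0.13 (edgeR adjusted p of 0.0748), and DESeq2 called both. Of 9 stress granule genes, 4 were lower and none higher at this threshold in P301S Tia1+/- against WT, again against 18% of all genes. They were Atxn2, Usp10, Tial1 and Caprin1. Atxn2 had 47.4, 55.7 and 54.3 CPM in WT and 31.3, 39.8 and 35.2 in P301S Tia1+/- (edgeR adjusted p of 0.0639), and DESeq2 called it. In Tia1+/- against WT 3 were lower, against 19.1%. These 3 were G3bp1, Caprin1 and Tia1, the last being the mutated gene itself. G3bp1, which encodes a granule nucleator, had 117, 98.4 and 96.4 CPM in WT and 78.4, 83.0 and 89.0 in Tia1+/-, a log2 fold change of −0.31 ± 0.09 (edgeR adjusted p of 0.101). It was −0.21 without WT replicate 1 and −0.14 with the bulb marker level as a covariate, and DESeq2 called it.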

How the data were processed

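The authors prepared stranded total RNA libraries, 1 per mouse, aligned the reads to mm10 with TopHat2 (2.0.6 per the submitters' processing notes) and assigned them to genes with featureCounts. The authors deposited raw counts, and all 12 columns were matched to samples. The gene annotation, strand setting and treatment of reads with several alignments are not given in the sources used here. Libraries were grouped by their titles, since the genotype entries of Tia1+/- and P301S Tia1+/- name each other's genotype.

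The counts were normalized by TMM and tested with edgeR 4.0.16 in R 4.3.3 (quasi-likelihood F test, a mean for each of 4 groups, all 12 libraries). filterByExpr kept 15440 genes. p-values were adjusted over these by Benjamini-Hochberg, with a threshold of 0.05. The standard error is the log2 fold change divided by the root of F, and p-values measure the spread between these mice. The script was tested on simulated data. Between 11978962 and 19146484 counts per library set the precision, and the limit for 0 counts covers counting error only. Exon lengths, overlaps and 50-base stretches were taken from GENCODE M21, which may differ from the annotation of the authors.

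The members and all gene lists were chosen with earlier results of these data known. Named genes were 26 core factors and, per comparison, up to 5 in each direction with an unadjusted p under 0.05 and no overlap between groups. Genes with an unadjusted p under 0.05 but overlapping groups, Eif2d and the pathway genes were chosen after their values were seen. No member was called, so no genes of like pattern were sought. Alternatives were DESeq2 1.42.0 (size factors, Wald test), no filter, at least 10 counts in every library, only the libraries compared, a replicate block, the olfactory bulb marker level as a covariate, and each library left out. Of 18 pairs of same-numbered libraries from separate groups, 7 showed residuals correlated above 0.1 (median −0.0597, from −0.538 to 0.346). All 3 pairs were above 0.1 only for Tia1+/- with P301S Tia1+/-, where a blocked fit of these 6 libraries was added after the data were seen.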

Additional observations from a re-analysis of the deposited data

How the results depend on the processing

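The number of initiation factors called stayed at 0 in all comparisons with DESeq2's size factors in edgeR, with no filter, with at least 10 counts in every library compared, and with the replicate block, which also called none in the 6 libraries of Tia1+/- and P301S Tia1+/- alone. DESeq2's Wald test called 1 in PS19 against WT, 1 in P301S Tia1+/- against PS19, 3 in Tia1+/- against WT, 1 in P301S Tia1+/- against Tia1+/-, 5 in P301S Tia1+/- against WT and 1 in the interaction. Fits of only the libraries compared called 3 in P301S Tia1+/- against PS19. With the bulb marker level as a covariate the counts were 1, 1, 1, 1 and 5 in the same order of comparisons, among them Eif2d, higher in P301S Tia1+/-, in 3. The medians then were −0.13 in PS19 against WT, 0.047 in P301S Tia1+/- against PS19, −0.12 in Tia1+/- against WT, 0.069 in P301S Tia1+/- against Tia1+/- and 0.21 in the interaction. Among the fold changes given in the text, this covariate turned the direction of Eif2d against PS19 (0.73), of Eif4g3 against PS19 (0.44), against Tia1+/- (0.16) and in the interaction (0.68), of Eif4a1 in the interaction (−0.057), and of Eif3a in PS19 against WT (0.023). Leaving out 1 library gave 0 to 4 calls in P301S Tia1+/- against WT (4 without WT replicate 1), 0 to 1 in Tia1+/- against WT and 0 to 1 in the interaction (both 1 without WT replicate 3). Its median ranged from −0.0041 (without WT replicate 3) to 0.079 (without P301S Tia1+/- replicate 3). Eif2d in P301S Tia1+/- ranged from −0.10 (without Tia1+/- replicate 3) to 0.15 against Tia1+/- and from −0.10 to 0.0013 (without P301S Tia1+/- replicate 1) against PS19. Of the 41 pathway genes the covariate called 1, 1, 2, 2, 6 and 1 in the 6 comparisons in the order above. These fits called between 1159 and 1594 genes in all. The covariate and the group cannot be fully separated in these 12 libraries. The causes were not tested.

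Over all genes the number of calls varied far more. The replicate block left 7, 9 and 18 calls in P301S Tia1+/- against PS19, Tia1+/- against WT and P301S Tia1+/- against WT, in place of 37, 110 and 203, while DESeq2's Wald test called 821, 972 and 974. In PS19 against WT and P301S Tia1+/- against Tia1+/-, DESeq2 called 431 and 403 in place of 0, in the interaction 1216 in place of 1, and the bulb covariate gave between 1159 and 1594 calls in every comparison. Leaving out WT replicate 1 gave 1637 calls in P301S Tia1+/- against WT and leaving out WT replicate 2 gave 9. The precision is set by 3 mice per group, with standard errors of 0.08 to 0.29 on the log2 scale for the members named with a fold change.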

Other observations

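Ratios of paralogs, per kilobase, gave values that the comparisons above do not hold. Eif1b to Eif1 was 1.24 to 1.62 in WT, 0.750 to 1.13 in Tia1+/-, 0.766 to 1.29 in PS19 and 1.02 to 1.30 in P301S Tia1+/-. Eif5a2 to Eif5a, the neuronal paralog to the general one, was 0.175 in WT replicate 1 and between 0.211 and 0.289 in the other 11 libraries. Eif4e to Eif4e2, the cap binder to the repressor, was 4.16 to 4.83 in WT, 3.59 to 4.35 in Tia1+/-, 3.81 to 4.10 in PS19 and 3.27 to 3.95 in P301S Tia1+/-, so that each WT library was above each PS19 and each P301S Tia1+/- library.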
